A study of Mus musculus with 3 samples.

Results

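The genes described here are 10 isozymes of energy metabolism that are known from male germ cells: Gapdhs, Pgk2, Ldhc, Aldoart1, Aldoart2, Cox6b2, Cyct, Pdha2, Eno4 and Sord. They were taken by gene symbol from 3 single-cell libraries of mouse, and all 10 were among the 26124 genes counted in each library. Their somatic counterparts Gapdh, Pgk1, Ldha, Ldhb, Aldoa, Cox6b1 and Cycs, 7 genes that most cells use, were taken the same way and serve only for comparison. The first library, called the chimera here, was made from the cauda epididymis of a Tsc22d3-KO chimera that carried mouse induced pluripotent stem cells as its complement (line Pax7-nGFP iPS x goGermline in the labels). A library called KO testis was made from testicular cells of an adult Tsc22d3KO mouse, and a library called KO cauda from the cauda epididymis of a Tsc22d3-KO, both of the line goGermline. Cauda cells were drawn through the skin with a needle, and the cauda is where sperm are kept before ejaculation. All 3 libraries thus carry the Tsc22d3 knockout, in the chimera together with cells of the stem cell line. The ages of the cauda animals, the number of animals per library and the number of stem cell clones are not given in the labels. There was 1 library per group, so no test of conditions was possible, and intervals below are exact 95% intervals that cover counting error only.

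The libraries were unequal in depth. The chimera library held 5395856 unique molecular identifiers (UMIs, 1 count per captured RNA molecule) over 214502 barcodes with a median of 2 UMIs, and 222 of those barcodes reached 500 UMIs. The KO testis library held 134795047 UMIs over 18108 barcodes (median 4787.5), and the KO cauda library 41862286 UMIs over 3937 barcodes (median 8963). Tsc22d3 itself was counted at 22.8 UMIs per 1000000 UMIs of the library (CPM) in the chimera, 6.05 CPM in the KO testis and 10.8 CPM in the KO cauda. The labels do not say which part of the gene is deleted and only the 3′ end of a transcript was counted, so these levels do not check the labels. The chimera sample is labelled as spermatids and spermatozoa, yet of the 184 barcodes that passed the filters 89 were B lymphocyte-like, 70 macrophage-like and 25 spermatid-like by their markers. Of these, 53 of the B lymphocyte-like, 66 of the macrophage-like and 2 of the spermatid-like barcodes were also in the KO cauda library. When the barcodes not in the KO cauda library were clustered alone, 6 were spermatocyte-like, a class that the clustering of all barcodes did not give. Ldhc UMIs fell into the B lymphocyte-like class, as given below, so that class may also hold germ cells. The KO cauda barcodes were mostly B lymphocyte-like (1868 of 3426) and macrophage-like (999), with 75 epididymal principal cell-like. Of the 12169 KO testis barcodes 79 were spermatocyte-like, and no class was named spermatid-like.

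The cauda libraries shared barcodes with each other. Of the 3937 KO cauda barcodes 3936 also carried at least 1 UMI in the chimera library, against 973 of the 18108 KO testis barcodes (5.37%). The shared barcodes held 58.8% of the chimera UMIs, 125 of its 222 barcodes of 500 or more UMIs, and all 102 of 10000 or more. In expression profile, 122 of those 125 were most like the same barcode in the KO cauda library among all 3937. Of the shared barcodes 121 were deeper in the chimera and 3815 deeper in the KO cauda. What led to the sharing was not tested. Many results on the chimera are therefore given for all barcodes and again for the unshared barcodes, which held 2223252 UMIs and 97 barcodes of 500 or more. The pathway lists, apart from the gene Akr1b7, and the ratios of some members are not given for unshared barcodes.

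Sperm make adenosine triphosphate for swimming by glycolysis along the tail and by respiration in the mitochondria of the midpiece. Developing male germ cells replace many enzymes of these pathways with forms of their own, several of them encoded by intronless copies of X-linked or housekeeping genes, and in mouse the glycolytic forms are needed for sperm motility. Ldhc, Cyct and Pdha2 are known to be switched on in spermatocytes, the cells in meiosis, while the Gapdhs and Pgk2 proteins appear in spermatids, the haploid cells that become sperm.

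In the GRCm38 assembly, with GENCODE M21 gene models, 4 of the 10 members are single-exon genes. These are Pgk2 (chr17:40207015-40208640, minus strand), Aldoart1 (chr4:72850583-72852634, minus), Aldoart2 (chr12:55565239-55566896, plus) and Pdha2 (chr3:141210004-141212355, minus). The others have introns: Gapdhs (chr7:30729775-30743681, minus, 11 exons), Ldhc (chr7:46861203-46878142, plus, 8 exons), Cox6b2 (chr7:4751792-4753094, minus, 4 exons), Cyct (chr2:76353942-76360450, minus, 4 exons), Eno4 (chr19:58943425-58971421, plus, 14 exons) and Sord (chr2:122234749-122265340, plus, 9 exons). Ldhc lies just downstream of its somatic relative Ldha (chr7:46841475-46855627) on the same strand.

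These isozymes resemble their somatic forms, so their sequences bear on whether the counts can be told apart. Over aligned coding bases Aldoart1 was 94.2% and Aldoart2 91.7% identical to Aldoa. The identity with the somatic form was 79.3% for Pgk2, 77.4% for Cyct, 75.6% for Pdha2, 73.7% for Ldhc with Ldha, 71.6% for Gapdhs and 64.9% for Cox6b2. Counting used the 3′ end, and there the members were distinct: none of the 451 words of 50 bases in the last 500 bases of any member's transcript occurred in another gene. For the somatic forms the share of such words found elsewhere was 90.5% for Gapdh, 75.2% for Eno1, 24.4% for Ldhb, 7.32% for Pgk1 and 3.33% for Aldoa, so counts of Gapdh, Eno1 and Ldhb are uncertain where reads match several genes. The first 60 coding bases of the aldolase copies and of Aldoa, from GENCODE M21 transcripts, are shown because these are the most alike of the isozymes, with capitals at bases that differ from Aldoa.
Aldoart1: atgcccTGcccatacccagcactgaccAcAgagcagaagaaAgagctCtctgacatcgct
Aldoart2: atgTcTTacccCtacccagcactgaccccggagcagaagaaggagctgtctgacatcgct
Aldoa: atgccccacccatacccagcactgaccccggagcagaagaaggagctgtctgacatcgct
Over all 1092 coding bases 63 differ from Aldoa in Aldoart1 and 91 in Aldoart2.

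Promoter windows of 250 bases before to 50 bases after the start were taken from RefSeq (GRCm38.p6), in which 9 of the 10 members and 7 of 7 somatic forms had an entry, and Aldoart1 was not matched. On both strands 3 motifs were searched: the cAMP response element TGACGTCA, the GC box GGGCGG and the YY1 motif GCCATNTTG. The 9 members had 11 entries and the 7 somatic forms 10, while all 32851 entries make up the background. For each gene the entry nearest the start of its main GENCODE transcript was counted. For Gapdhs that start lies inside the gene span given above, 4274 bases from the start of its other entry. TGACGTCA was in 1.79% of all promoters, in 0 of 9 members and in 1 of 7 somatic forms (Cycs), or 2 of 7 with a further entry of Ldha. GGGCGG was in 35.7% of all promoters, in 3 of 9 members (Ldhc, Cox6b2 and Sord) and in 3 of 7 somatic forms, or 4 of 7 with that entry of Ldha. GCCATNTTG was in 2.51% of all promoters and in none of the members or somatic forms. The promoters of 4 members are shown because Gapdhs and Pgk2 were high together in the chimera's spermatid-like class, and Ldhc and Cox6b2 in the spermatocyte-like class of the KO testis. Capitals mark GGGCGG on either strand.
Gapdhs, chr7:30739358-30739657, minus strand: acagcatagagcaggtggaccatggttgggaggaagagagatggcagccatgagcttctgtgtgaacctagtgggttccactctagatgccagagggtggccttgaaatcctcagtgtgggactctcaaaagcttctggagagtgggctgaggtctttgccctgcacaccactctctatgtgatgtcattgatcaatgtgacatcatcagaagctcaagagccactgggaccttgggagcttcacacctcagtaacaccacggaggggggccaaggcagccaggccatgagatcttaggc
Pgk2, chr17:40208560-40208859, minus strand: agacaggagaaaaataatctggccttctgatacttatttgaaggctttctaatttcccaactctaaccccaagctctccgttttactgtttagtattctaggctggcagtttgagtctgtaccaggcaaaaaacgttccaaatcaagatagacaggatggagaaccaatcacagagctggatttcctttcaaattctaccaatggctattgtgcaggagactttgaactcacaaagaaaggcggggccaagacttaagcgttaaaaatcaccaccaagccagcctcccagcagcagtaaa
Ldhc, chr7:46861013-46861312, plus strand: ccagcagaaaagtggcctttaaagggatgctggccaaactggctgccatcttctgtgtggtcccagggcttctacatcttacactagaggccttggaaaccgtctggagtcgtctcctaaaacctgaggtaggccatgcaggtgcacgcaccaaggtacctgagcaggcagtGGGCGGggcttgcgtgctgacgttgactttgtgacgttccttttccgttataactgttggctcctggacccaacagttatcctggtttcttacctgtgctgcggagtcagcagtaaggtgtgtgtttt
Cox6b2, chr7:4753045-4753344, minus strand: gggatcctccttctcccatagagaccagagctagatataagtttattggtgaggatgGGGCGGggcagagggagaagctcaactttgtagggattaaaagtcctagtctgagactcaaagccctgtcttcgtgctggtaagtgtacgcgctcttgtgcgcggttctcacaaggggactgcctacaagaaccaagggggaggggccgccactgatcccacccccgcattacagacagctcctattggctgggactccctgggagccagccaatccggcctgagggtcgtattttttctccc
A match to these letters is a description, not a binding site.

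The chimera was set against the KO cauda to see which of these transcripts were found in the duct of the complemented animal. Of the 10 members 9 were higher in the chimera, and Eno4 was not detected there. Summed over the 10 members the level was 1105 CPM (1077 to 1134) in the chimera, 38.5 CPM (37.5 to 39.6) in the KO testis and 23.5 CPM (22.0 to 25.0) in the KO cauda. Without Sord, the member that many somatic cells also use, the sums were 540.2 CPM in the chimera, 17.7 CPM in the KO testis and 1.62 CPM in the KO cauda. The 7 somatic forms summed to 1952 CPM in the chimera, 2703 CPM in the KO testis and 1856 CPM in the KO cauda. The sum of the members thus differed far more between the libraries than that of the somatic forms. In such sums, fewer cells of a type and less RNA per cell cannot be told apart. Each transcript molecule was counted once at its 3′ end, so levels of different genes were compared without dividing by length.

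Genes of sperm chromatin and of the sperm tail, none of them a member, were also highest in the chimera, but over all barcodes were lower in the KO testis than in the KO cauda, unlike the members' sum. The 5 chromatin genes (Prm1, Prm2, Prm3, Tnp1, Tnp2), which pack the sperm DNA, summed to 6280 CPM in the chimera, 0.304 CPM in the KO testis and 3.89 CPM in the KO cauda. Of the 163 KO cauda UMIs of these 5 genes 156 lay in the 121 shared barcodes that were deeper in the chimera, and without those barcodes the sum was 0.169 CPM (0.0680 to 0.348) in the KO cauda. The 11 tail and capsule genes summed to 8105 CPM in the chimera, 25.5 CPM in the KO testis and 31.3 CPM in the KO cauda. Without those barcodes the KO cauda was at 27.2 CPM. Most tail-gene UMIs of the KO cauda were of the single gene Odf2, and 2.04% of its UMIs lay in those barcodes. Prm3, Odf3 and Akap3 were at 0 UMIs in the KO testis, and Odf3, Odf4 and Fscn3 in the KO cauda. The part of germ cell number in the members' levels was not tested.

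**Figure D1:**
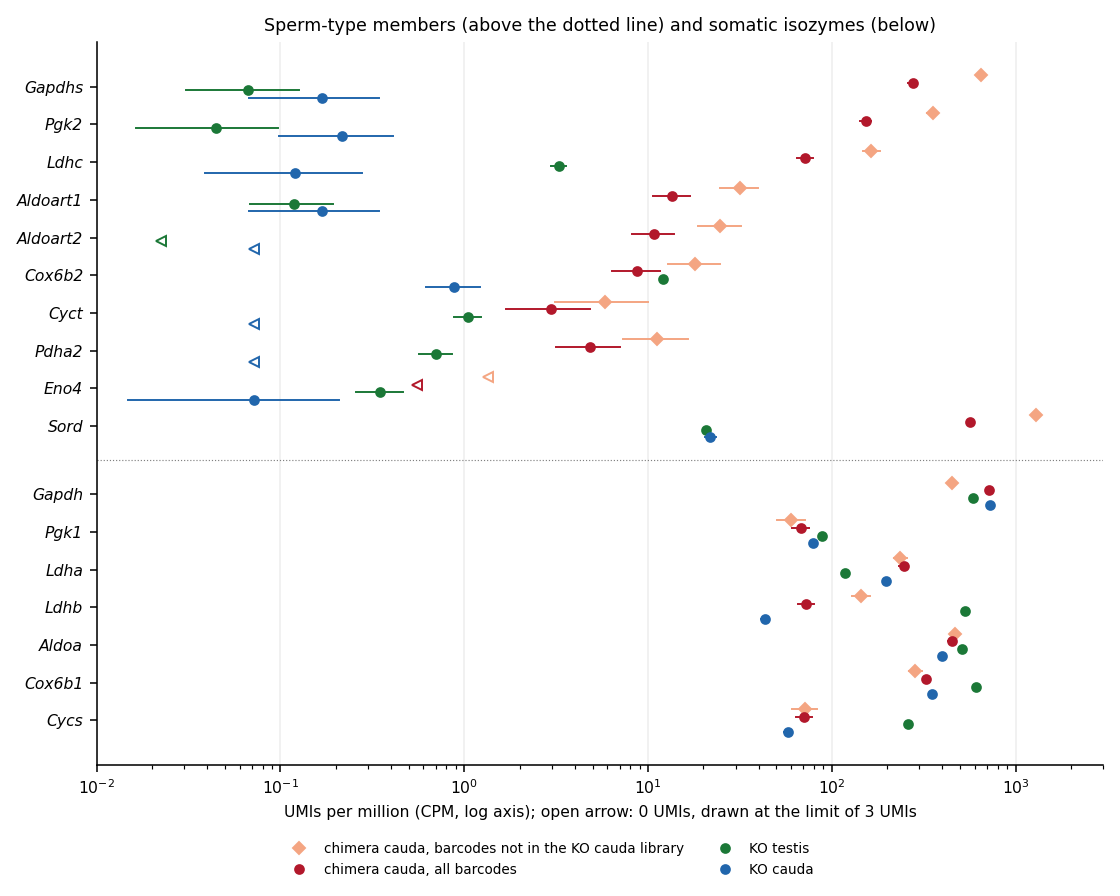
Level of each member (above the dotted line) and each somatic isozyme (below it) in CPM on a log axis, with exact Poisson 95% intervals, for unshared chimera barcodes, all chimera barcodes, the KO testis and the KO cauda; open arrows mark 0 UMIs, drawn at the level of 3 UMIs. The chimera points of 9 members lie to the right of the KO cauda points, while the somatic forms lie closer together, with Ldhb highest in the KO testis and next in the unshared chimera barcodes, and Cycs highest in the KO testis.

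Gapdhs encodes the sperm form of glyceraldehyde-3-phosphate dehydrogenase, which is bound to the fibrous sheath of the tail. It had 1485 UMIs (275 CPM) in the chimera, 9 (0.0668 CPM) in the KO testis and 7 (0.167 CPM) in the KO cauda. The chimera alone was high, and both knockout libraries held fewer than 10 UMIs. The ratio of the chimera to the KO cauda was 1646 (797 to 4101), and 3879 with unshared chimera barcodes. The chimera's Gapdhs UMIs were spread over 1281 barcodes, with at most 16 in any of them.

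Pgk2 encodes phosphoglycerate kinase 2, which catalyses the next step of glycolysis. It had 825 UMIs (153 CPM) in the chimera, 6 (0.0445 CPM) in the KO testis and 9 (0.215 CPM) in the KO cauda. Again the chimera alone was high, with a ratio to the KO cauda of 711 (373 to 1561). All 9 KO cauda UMIs of Pgk2, 7 of them in a single barcode, lay in the 121 shared barcodes that were deeper in the chimera. When each shared barcode was kept only where it was deeper, the KO cauda had 0 UMIs and Pgk2 was at least 2252-fold higher in the chimera.

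Ldhc encodes the lactate dehydrogenase subunit of testis and sperm. It had 385 UMIs (71.4 CPM) in the chimera, 442 (3.28 CPM) in the KO testis and 5 (0.119 CPM) in the KO cauda. The chimera was highest and the KO testis lay in between, unlike for Gapdhs and Pgk2. The ratio of the chimera to the KO cauda was 597 (254 to 1850). All 5 KO cauda UMIs lay in shared barcodes deeper in the chimera, and without these Ldhc was at least 1052-fold higher in the chimera. Against the KO testis the ratio of the chimera was 21.8 (18.9 to 25.0).

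Aldoart1 and Aldoart2 encode aldolases made from retrogenes in the testis. Aldoart1 had 73 UMIs (13.5 CPM) in the chimera, 16 (0.119 CPM) in the KO testis and 7 (0.167 CPM) in the KO cauda. Its ratio of the chimera to the KO cauda was 80.9 (37.3 to 208). Aldoart2 had 58 UMIs (10.7 CPM) in the chimera and 0 in both knockout libraries. It was at least 149.99-fold higher in the chimera than in the KO cauda, taking 3 UMIs as the limit that a count of 0 allows. Both genes thus followed Gapdhs and Pgk2 at a lower level.

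Sord encodes sorbitol dehydrogenase, which turns sorbitol into fructose. It was the most abundant member in each of the 3 libraries, with 3049 UMIs (565 CPM) in the chimera, 2797 (20.8 CPM) in the KO testis and 914 (21.8 CPM) in the KO cauda. The knockout libraries lay close to each other, with a ratio of KO testis to KO cauda of 0.9504 (0.882 to 1.03). In the chimera Sord was 25.9-fold higher than in the KO cauda (24.0 to 27.9), and 59.0-fold with unshared barcodes.

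Over all chimera barcodes the 3 mitochondrial members were lower than the glycolytic ones other than Eno4. Cox6b2, the testis form of a cytochrome c oxidase subunit, had 47 UMIs (8.71 CPM) in the chimera, 1636 (12.1 CPM) in the KO testis and 37 (0.884 CPM) in the KO cauda. Cyct, the testis cytochrome c, had 16 UMIs (2.97 CPM) in the chimera, 141 (1.05 CPM) in the KO testis and 0 in the KO cauda. Pdha2, the testis subunit of pyruvate dehydrogenase, had 26 UMIs (4.82 CPM) in the chimera, 95 (0.705 CPM) in the KO testis and 0 in the KO cauda. All 3 were therefore lowest in the KO cauda. Against the KO cauda, Cyct was at least 41.4-fold, Pdha2 at least 67.2-fold and Cox6b2 9.86-fold (6.27 to 15.6) higher in the chimera. Cox6b2 was lower in the chimera than in the KO testis over all barcodes, with a ratio of 0.718 (0.525 to 0.959), and higher with unshared barcodes, with a ratio of 1.48 (1.06 to 2.03).

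Eno4 encodes an enolase-related protein of the sperm tail. It had 0 UMIs in the chimera, which allows up to 0.556 CPM, 47 UMIs (0.349 CPM) in the KO testis and 3 (0.0717 CPM) in the KO cauda. At the depth of the chimera library a level like that of the KO testis was not detectable.

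By a rule of size used across all genes (at least 4-fold, among genes of at least 10 CPM in the higher library), 6 of the 10 members could be counted between the chimera and the KO cauda, and all 6 were higher in the chimera: Gapdhs, Pgk2, Ldhc, Aldoart1, Aldoart2 and Sord. Of the 8743 genes that could be counted 4.56% were higher by that rule and 0.32% lower. All of these 6 but Sord reached 10 CPM only in the chimera and so had to differ, which makes the count a description. Cox6b2, Cyct, Pdha2 and Eno4 stayed under 10 CPM in both libraries. With unshared barcodes 8 of 8 were higher, Cox6b2 and Pdha2 added, beside 8.61% of 9119 genes higher and 1.18% lower. Again all of these but Sord reached 10 CPM only in the chimera and so could only come out higher. Against the KO testis 6 of the 7 members that could be counted were higher over all chimera barcodes, all but Cox6b2. That stood beside 12% of 10167 genes higher and 13.7% lower. With unshared barcodes 7 of 8 were higher than in the KO testis, beside 13.7% of 10342 genes higher and 14.7% lower. In both counts all members but Sord and Cox6b2 reached 10 CPM only in the chimera and so could only come out higher. Between the caudas none of the 7 somatic forms was 4-fold higher or lower over all barcodes, and their ratios ran from 0.857 for Pgk1 to 1.69 for Ldhb. With unshared barcodes none was either, and the ratio of Ldhb was 3.33 (2.95 to 3.76). The median log2 ratio of all genes counted was 0.13 over all barcodes and 0.01 with unshared barcodes.

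The share of each pair of isozymes that came from the sperm form does not depend on scaling by library size. In the chimera over all barcodes Pgk2 made up 69.3% of the 1190 UMIs of Pgk2 and Pgk1 (66.6 to 71.9), Gapdhs 27.7% of its pair, and Ldhc 18.3% of the UMIs of Ldhc, Ldha and Ldhb. Pdha2 made up 6.67% of its pair, both Aldoart genes together 5.13%, Cyct 4.03% and Cox6b2 2.59%. Of the 8 pairs, only that of Pgk2 thus had more sperm form than somatic form over all chimera barcodes. In the KO testis the shares ran from 0.0114% for Gapdhs to 1.95% for Cox6b2, and in the KO cauda from 0% for Cyct and Pdha2 to 0.272% for Pgk2. In the unshared chimera barcodes the shares were 85.4% for Pgk2, 59.0% for Gapdhs, 30.1% for Ldhc, 14.1% for Pdha2, 10.7% for the Aldoart genes, 7.60% for Cyct and 5.93% for Cox6b2. In the shared chimera barcodes 43 UMIs of Gapdhs stood beside 2876 of Gapdh, and 39 of Pgk2 beside 231 of Pgk1.

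**Figure D2:**
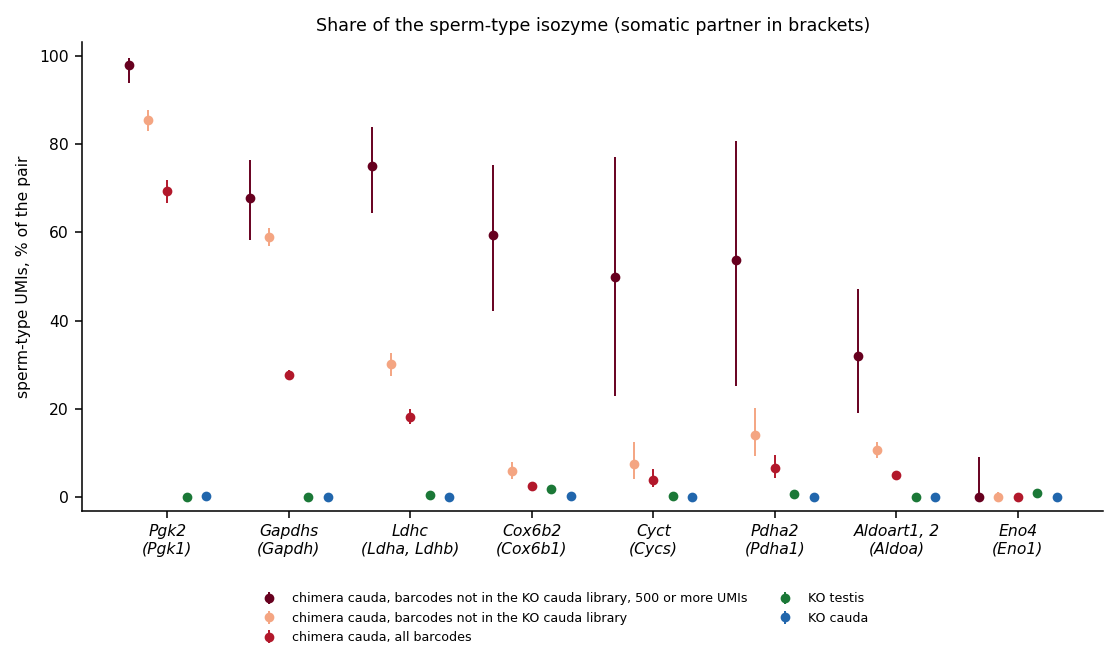
Share of the UMIs of each isozyme pair that came from the sperm form, in percent, with exact binomial 95% intervals, for 3 sets of chimera barcodes and for the KO testis and KO cauda libraries. In unshared chimera barcodes of 500 or more UMIs the shares of Pgk2, Ldhc, Gapdhs, Cox6b2 and Pdha2 lie above 50%, while no share in the knockout libraries exceeds 1.95%.

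The share of the sperm form differed between shallow and deep unshared barcodes. In the 97 of 500 or more UMIs Cox6b2 supplied 22 of 37 UMIs of its pair (59.5%, 42.1 to 75.2), Cyct 7 of 14 (23.0 to 77.0%) and Pdha2 7 of 13 (25.1 to 80.8%). Pgk2 supplied 137 of 140 there (97.9%), Ldhc 63 of 84 (75.0%) and Gapdhs 76 of 112 (67.9%). In 5 of the 8 pairs the sperm form was thus the larger part, with wide intervals for Cox6b2 and Pdha2. Below 500 UMIs the unshared barcodes gave 18 of 637 UMIs for Cox6b2 (2.83%), 6 of 157 for Cyct (3.82%), 18 of 164 for Pdha2, 302 of 1127 for Ldhc (26.8%) and 1366 of 2334 for Gapdhs (58.5%).

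Levels of the members varied with the depth of the unshared chimera barcodes. The 10 members summed to 799 CPM in barcodes of 1 to 9 UMIs, 2390.0 CPM at 20 to 49, 6316 CPM at 200 to under 500, 9722 CPM at 500 to under 2000 and 1684 CPM at 2000 to under 10000. The 78 barcodes of 500 to under 2000 UMIs had the highest summed level. Most UMIs lay in shallower barcodes, with 765 of the 1442 unshared Gapdhs UMIs in barcodes of 20 to 49 UMIs. At so few UMIs, RNA inside sperm and RNA free in the fluid cannot be told apart.

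Single members followed different courses over depth. Sord reached 6297 CPM (5758 to 6873) and Pgk2 1631 CPM (1362 to 1936) at 500 to under 2000 UMIs, and Gapdhs 1344 CPM (1059 to 1683) at 200 to under 500. Among the 19 barcodes of 2000 to under 10000 UMIs, Gapdhs was at 67.4 CPM (18.4 to 172) and Pgk2 at 118 CPM (47.4 to 243), while Ldhc was at 404 CPM (259 to 601) and Cox6b2 at 168 CPM (80.7 to 309.7). The deepest unshared barcodes thus held little Gapdhs or Pgk2 but kept Ldhc and Cox6b2. The chromatin genes summed to 8543 CPM at 500 to under 2000 UMIs and 741 CPM at 2000 to under 10000, and the tail genes to 70963 CPM and 10575 CPM.

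**Figure D3:**
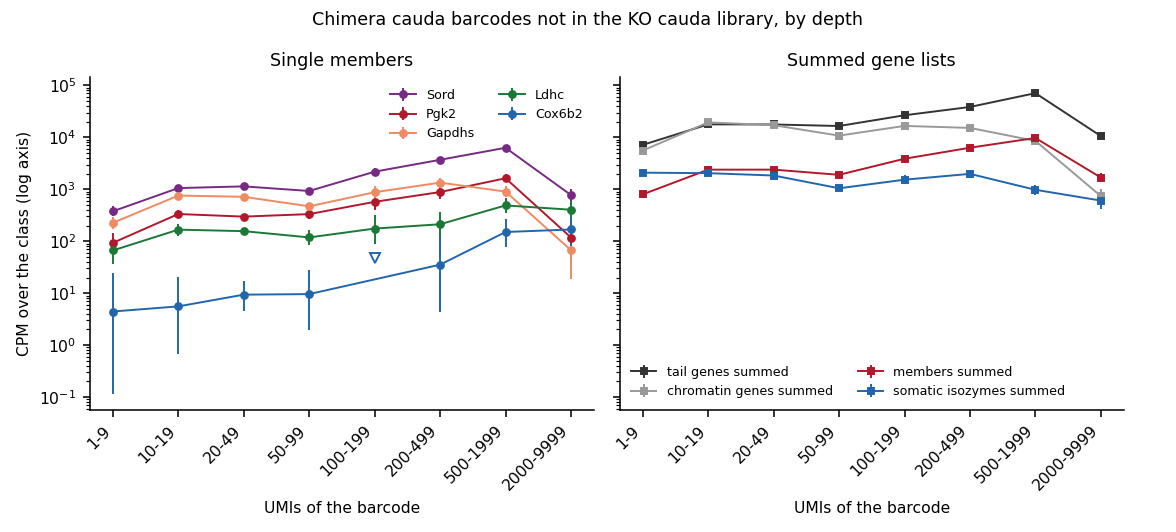
Level in CPM (log axis) of 5 members (left) and of summed gene lists (right) in chimera barcodes not shared with the KO cauda library, by the number of UMIs of the barcode, with exact Poisson 95% intervals; the open triangle marks 0 UMIs of Cox6b2. Sord and Pgk2 peak at 500 to under 2000 UMIs, and at 2000 to under 10000 UMIs Ldhc and Cox6b2 lie above Gapdhs and Pgk2.

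Barcodes were next classed by chromatin and tail genes, whatever their cell type. Among unshared barcodes of at least 20 UMIs, the members summed to 5044 CPM in 6153 barcodes with a gene of both lists, 2974 CPM in 10247 with a tail gene only, 1980.0 CPM in 9656 with a chromatin gene only and 1885 CPM in 17817 with neither. Pgk2 had the same order, with 726 CPM where both lists were found, 456.5 CPM with a tail gene only, 272 CPM with a chromatin gene only and 225 CPM with neither. Gapdhs had another order below the first class, with 1032 CPM where both lists were found, 682 CPM with a chromatin gene only, 612 CPM with neither and 487 CPM with a tail gene only. After each barcode was thinned to 20 UMIs, 5.44% (4.89 to 6.04) of the barcodes with both and 4.09% (3.81 to 4.39) of those with neither held a member UMI, against 10.8% and 5.58% before thinning. When shared barcodes were kept the direction of the summed level turned, with 731 CPM in barcodes with both and 1255 CPM in barcodes with neither. The share of thinned barcodes with a member UMI did not turn, at 5.73% with both and 3.54% with neither.

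Cell classes were formed by clustering barcodes of at least 500 UMIs without the members or their partners. The chimera's spermatid-like class had 25 barcodes (2 of them shared) and 33877 UMIs, and 11 of 13 detected spermatid markers were raised in it, with Oaz3, Smcp and Crisp2 among its leading genes. Its levels were 15674 CPM for Sord (531 UMIs), 4575 CPM for Pgk2 (155), 2184 CPM for Gapdhs (74), 561 CPM for Ldhc (19), 266 CPM for Aldoart1 (9) and 148 CPM for Aldoart2 (5). Cox6b2, Cyct, Pdha2 and Eno4 had 0 UMIs, which allows up to 88.6 CPM each. Sord and Pgk2 thus led, and the mitochondrial members were not detectable at this depth.

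Of the somatic forms, Pgk1, Gapdh, Ldha and Ldhb had at most 1 UMI each in the spermatid-like class, while Aldoa and Eno1 were counted there. Pgk2 supplied 155 of 155 UMIs of its pair, Gapdhs 74 of 75 (98.7%), Ldhc 19 of 20 and the Aldoart genes 14 of 26 (53.8%, 33.4 to 73.4). Aldoa had 12 UMIs (354 CPM) and Eno1 29 (856 CPM). After thinning each barcode to 500 UMIs, Sord was found in 25 of 25 spermatid-like barcodes, Pgk2 in 21, Gapdhs in 9 and Ldhc in 4. In the chimera's macrophage-like class, which should lack Gapdhs, Pgk2 and Ldhc and had a median of 29121 UMIs against 1254 in the spermatid-like class, the thinned counts were 1 of 70 for Gapdhs and 0 for Pgk2 and Ldhc, and 5 for Sord, which the macrophage-like classes of the knockout libraries also held.

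When the unshared chimera barcodes were clustered alone, a step chosen after the sharing had been seen, 63 passed the filters and fell into 4 clusters. Cluster 2 (24 barcodes, 7 of 13 spermatid markers raised) resembled the spermatid-like class, with 17164 CPM for Sord, 4606 CPM for Pgk2, 2087 CPM for Gapdhs, 324 CPM for Ldhc and 0 UMIs of Cyct and Pdha2. Cluster 4 (6 barcodes, 5 of 7 spermatocyte markers raised) had 2167 CPM for Ldhc (26 UMIs), 917 CPM for Cox6b2 (11), 333 CPM each for Cyct and Pdha2 (4 each), 167 CPM for Pgk2 (2) and 83.4 CPM for Gapdhs (1). Cluster 3 (8 barcodes) stayed unnamed, as its best class, erythroid, had 1 of 3 markers raised. Its leading genes were Fam229a, 1700003F12Rik, Prm3, Serf1, Psma6, Znrf4, Ggnbp2, Meig1, Ubb and Gpx4. This cluster had 2281 CPM for Ldhc (28 UMIs), 896 CPM for Gapdhs (11), 733 CPM for Cox6b2 (9) and 81.5 CPM for Pgk2 (1). Sord, Pgk2 and Gapdhs were thus the most abundant members in cluster 2, and Ldhc led in clusters 3 and 4. Cluster 1 (25 barcodes, B lymphocyte-like) held 6 UMIs each of Gapdhs and Sord, 1 of Pgk2 and none of the other members. In the clustering of all chimera barcodes, 50 UMIs of Ldhc and 21 of Cox6b2 fell into the B lymphocyte-like class.

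**Figure D4:**
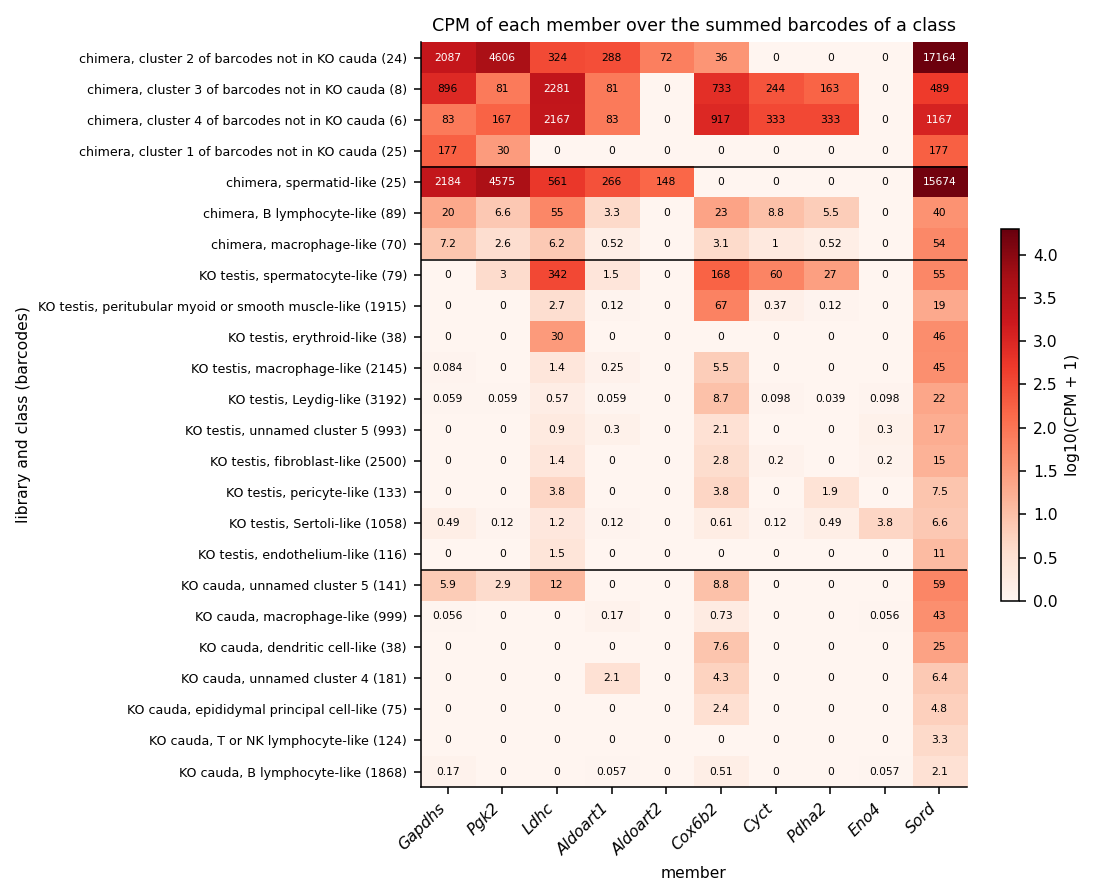
Level in CPM of each member over the summed barcodes of each cell class or cluster, with the number of barcodes in brackets and the colour on a log10(CPM + 1) scale; black lines separate the unshared chimera clusters, the chimera classes, the KO testis classes and the KO cauda classes. Sord, Pgk2 and Gapdhs are highest in chimera cluster 2 and in the spermatid-like class, and Ldhc and Cox6b2 in chimera clusters 3 and 4.

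Several members occurred together in single barcodes. Of the 97 unshared chimera barcodes of 500 or more UMIs, 29 held 3 or more different members, 13 held 2 and 8 held 1, and the most in any barcode was 6. Pgk2 was found in 28 of them, and all 28 also held Sord. Gapdhs was found in 22, of which 16 held Sord and 13 held Pgk2. Ldhc was found in 17, of which 14 held Sord, 10 held Cox6b2, 7 held Pgk2 and 7 held Gapdhs. Depth is shared within a barcode, so these overlaps are descriptions.

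The KO testis was set against the KO cauda to see which members were found in the knockout's own testis. Ldhc, Cox6b2, Cyct and Pdha2 were higher in the KO testis, while Gapdhs, Pgk2 and both Aldoart genes stayed between 0 and 16 UMIs among 134795047. Ldhc was 27.5-fold (11.7 to 85.0) and Cox6b2 13.7-fold (9.92 to 19.6) higher than in the KO cauda, Cyct at least 14.6-fold and Pdha2 at least 9.83-fold. Without the KO cauda barcodes that were deeper in the chimera, Ldhc was at least 45.2-fold higher in the KO testis. Eno4 had a ratio of 4.87 (1.57 to 24.4) on 3 KO cauda UMIs. By the rule of size 2 members could be counted and 1 of them, Cox6b2, was higher. That stood beside 15.6% of 9696 genes higher and 8.33% lower. Cox6b2 reached 10 CPM only in the KO testis and so could only come out higher. Among the somatic forms Ldhb (529.7 CPM in the KO testis, 43.2 CPM in the KO cauda) and Cycs (259 CPM in the KO testis, 57.5 CPM in the KO cauda) were higher by the rule, and the other 5 were not. The median log2 ratio of all genes counted was 0.30.

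Of the germ cell markers, those of spermatocytes were higher in the KO testis and those of spermatids lower over all barcodes. The 10 spermatocyte markers summed to 74.1 CPM in the KO testis and 5.59 CPM in the KO cauda, where Tex101 was at 0. The 14 spermatid markers summed to 6.13 CPM in the KO testis, where Prm3 was at 0, and 11.5 CPM in the KO cauda. Without the KO cauda barcodes deeper in the chimera the order of the spermatid markers turned, with 3.77 CPM left in the KO cauda. Tissue and depth also differed between these libraries. The part of each in the members' levels was not tested.

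In the 79 spermatocyte-like barcodes of the KO testis 10 of 10 spermatocyte markers were raised, and the levels were 342 CPM for Ldhc (230 UMIs), 168 CPM for Cox6b2 (113), 59.5 CPM for Cyct (40), 55.0 CPM for Sord (37) and 26.8 CPM for Pdha2 (18). Pgk2 had 2 UMIs, Aldoart1 1, and Gapdhs, Aldoart2 and Eno4 none, which allows up to 4.46 CPM. The sperm form supplied 40.4% of the lactate dehydrogenase UMIs, 31.6% of the Pdha2 pair, 19.4% of the Cox6b2 pair and 16.7% of the Cyct pair, but 2.22% of the Pgk2 pair and 0% of the Gapdhs pair. Ldhc and Cox6b2 thus led in this class, whereas Sord and Pgk2 led in the chimera's spermatid-like class. Most of the 1636 Cox6b2 UMIs of the KO testis lay outside the spermatocyte-like class. Of the library's 442 Ldhc UMIs, spread over 203 barcodes, the class held only the 230 given above. Thinned to 500 UMIs, 16 of the 79 barcodes (median 1187 UMIs) held Ldhc, against 4 of 1915 peritubular myoid or smooth muscle-like barcodes (median 4231).

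A single barcode carried much of this signal. Ranked by spermatocyte-marker UMIs, the first KO testis barcode, with 54103 UMIs in all and 576 of those markers, held 193 of the library's 442 Ldhc UMIs (3567 CPM within that barcode), 79 of Cox6b2, 33 of Cyct, 16 of Pdha2 and none of Gapdhs or Pgk2. Without it the spermatocyte-like class was at 59.9 CPM for Ldhc, 55.0 CPM for Cox6b2, 38.8 CPM for Sord, 11.3 CPM for Cyct and 3.24 CPM for Pdha2. The ratio of Ldhc between the KO testis and the KO cauda was then 15.5 (6.54 to 48.1), that of Cox6b2 13.1, that of Cyct at least 11.2 and that of Pdha2 at least 8.18.

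Besides it, 6 further KO testis barcodes held 200 or more spermatocyte-marker UMIs, and the filters or the doublet score had left all 6 out of the classes. They held 0 to 3 Ldhc UMIs each, while the second held 22 Pdha2 UMIs (420.4 CPM), more than the first, and the fifth held 9 of Cyct. The fourth held no member UMI among 17854. Barcodes rich in the same markers thus differed in which members they held. Together the 7 held 201 of the 442 Ldhc, 54 of the 141 Cyct, 56 of the 95 Pdha2 and 109 of the 1636 Cox6b2 UMIs. Without all 7 the ratio of the KO testis to the KO cauda was 12.8 for Cox6b2, at least 9.02 for Cyct and at least 4.04 for Pdha2. With no doublets removed, the spermatocyte-like class of the KO testis grew to 137 barcodes, with 128 CPM for Ldhc, 92.8 CPM for Cox6b2, 61.7 CPM for Cyct, 44.3 CPM for Pdha2 and 0 UMIs of Gapdhs.

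**Figure D5:**
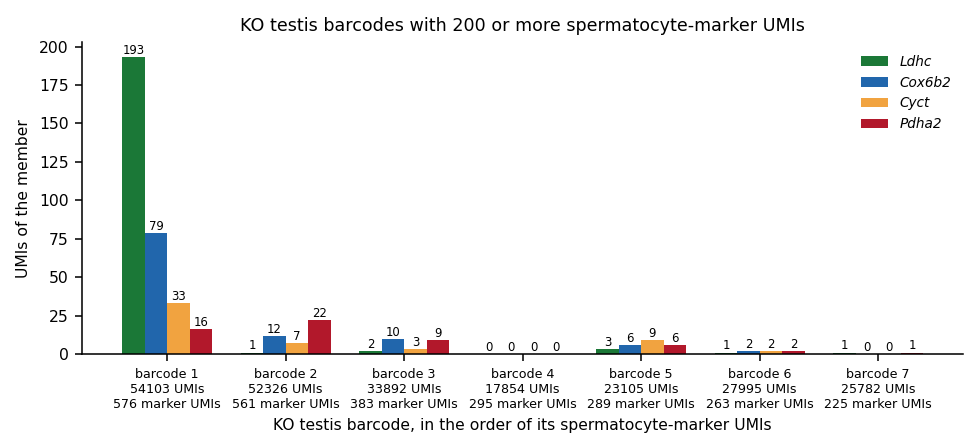
UMIs of Ldhc, Cox6b2, Cyct and Pdha2 in the 7 KO testis barcodes with at least 200 UMIs over 10 spermatocyte markers, in the order of those marker UMIs. The first barcode holds 193 Ldhc UMIs and the others 0 to 3, while Pdha2 is highest in the second with 22.

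Cox6b2, Eno4 and Sord were also counted in somatic classes. In the KO testis the peritubular myoid or smooth muscle-like class held 547 Cox6b2 UMIs (66.7 CPM, 61.2 to 72.5). The spermatocyte-like class without its first barcode was at 55.0 CPM on 34 UMIs, too few to rank these classes. With that barcode the spermatocyte-like class was higher, as given above. The Leydig-like class held 446 Cox6b2 UMIs (8.72 CPM) and the Sertoli-like class 5 (0.611 CPM). Thinned to 500 UMIs, 3.81% of the peritubular myoid or smooth muscle-like barcodes (median 4231 UMIs) held Cox6b2, against 0.189% of the Sertoli-like barcodes (median 3039.5). Of the 47 Eno4 UMIs 31 lay in the Sertoli-like class (3.79 CPM). Sord was at 44.6 CPM in the macrophage-like class of the KO testis and 6.60 CPM in its Sertoli-like class. In the KO cauda 778 of the 914 Sord UMIs lay in the macrophage-like class (43.5 CPM, 40.5 to 46.7), and the B lymphocyte-like class was at 2.11 CPM (1.48 to 2.90). Most Sord UMIs of the KO cauda thus came from a somatic class.

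Other genes of these pathways were taken as lists, with values for the 3 genes of most chimera UMIs and for those past the rule of size. Of 19 genes of glycolysis and lactate transport 15 could be counted between the caudas, and 2 were higher and 0 lower, beside 4.56% of all genes higher and 0.32% lower. Hk1, hexokinase 1, whose gene also makes a germ cell isoform, was at 241 CPM in the chimera, against 32.3 CPM in the KO cauda, 7.44-fold higher (6.89 to 8.04). Pgam2, the phosphoglycerate mutase of muscle and testis, had 301 UMIs in the chimera and 2 in the KO cauda, a ratio of 1168 (320.4 to 9686). Both were therefore higher in the chimera, but Pgam2 reached 10 CPM only there and so had to differ. Bsg, a partner of lactate transporters, was at 604 CPM in the chimera, against 392 CPM in the KO cauda. Gpi1, glucose-6-phosphate isomerase, was at 294 CPM in the chimera, against 258 CPM in the KO cauda, and Pkm, pyruvate kinase, at 284 CPM in the chimera, against 237 CPM in the KO cauda. The list's median log2 ratio was 0.60, beside 0.13 over all genes counted and 8.23 over the 6 members counted. The value of the members is a description only. All of them but Sord reached 10 CPM only in the chimera and so had to differ, and Aldoart2 entered as a lower bound.

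Of 14 further isoforms known from male germ cells 8 could be counted, of which 6 were higher in the chimera library, beside the same 4.56% of all genes. These 6 reached 10 CPM in the chimera alone and so had to differ, which makes the count and the median descriptions. The median log2 ratio over these 8 was 8.51. Akap4, the scaffold of the fibrous sheath, had 416 UMIs in the chimera and 2 in the KO cauda. The other 5 were Oxct2b (102 UMIs in the chimera, 0 in the KO cauda), Oxct2a (69 in the chimera, 1 in the KO cauda), Atp1a4 (92 in the chimera, 1 in the KO cauda), Ldhal6b (57 in the chimera, 12 in the KO cauda) and Cox8c. Cox8c, like Cox6b2 a testis form of a cytochrome c oxidase subunit, had 65 UMIs in the chimera, 432 in the KO testis and 1 in the KO cauda. Ppp1cc (111 CPM in the chimera, 96.6 CPM in the KO cauda) and Gsk3a (39.7 CPM in the chimera, 34.3 CPM in the KO cauda), a phosphatase and a kinase of many cells, were not past the rule.

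Of 6 polyol pathway genes 4 could be counted, with a median log2 ratio of 0.08. None was higher, beside 4.56% of all genes. Akr1b7 was lower, beside 0.32% of all genes (3.52 CPM in the chimera, 14.8 CPM in the KO cauda). It reached 10 CPM only in the KO cauda and so could only come out lower. In the unshared chimera barcodes Akr1b7 was at 6.75 CPM (3.78 to 11.1), which is less than 4-fold lower. Akr1b3, the aldose reductase that makes sorbitol from glucose, was at 94.1 CPM in the chimera, against 91.9 CPM in the KO cauda. Khk, ketohexokinase, was at 113 CPM in the chimera, against 103.5 CPM in the KO cauda, and Slc2a8, a sugar transporter, at 13.9 CPM in the chimera, against 8.46 CPM in the KO cauda. Sord was thus past the rule of size while the gene that supplies its substrate was not.

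Of 13 subunits of pyruvate dehydrogenase and cytochrome c oxidase used by all cells none was 4-fold higher or lower, with a median log2 ratio of -0.26. Cox4i1 was at 615 CPM in the chimera, against 845 CPM in the KO cauda, Cox8a at 494 CPM in the chimera, against 694 CPM in the KO cauda, and Cox6c at 423 CPM in the chimera, against 507 CPM in the KO cauda. In the KO testis against the KO cauda, 3 of 15 glycolysis genes (Hk2, Pfkm, Slc16a1), 1 of 5 polyol genes (Akr1b8) and 1 of 13 subunits (Cox6a1) were higher, beside the 15.6% of all genes given above.

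The genes whose levels over 15 depth classes of the 3 libraries were most like the summed members, out of 6367 genes, were Fhl4 (Pearson r = 0.987), Ccdc136, Stard6, Crisp2, 4933415F23Rik, Azin2, Pgam2, Chl1, Znrf4 and Tsks (0.981). The members Sord (0.992), Pgk2 (0.978), Gapdhs (0.971) and Ldhc (0.957) are part of that sum. Without Sord in the sum the most alike was Nupr1l (0.988). The classes share libraries and depth, so these values describe these data only.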

How the data were processed

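These are single-cell libraries of 10x Genomics 3′ version 3.1 chemistry, 3 in all and 1 per group, grouped by their titles. Reads were processed by the authors with Cell Ranger 6 and Seurat 4.2.1 on GRCm38.p6, per the submitters' processing notes, while the file headers name Cell Ranger 4 for the chimera and 6.1.2 for the knockout libraries. The deposited values are raw UMI counts per gene and barcode, with no normalization, and the chimera matrix also lists barcodes of very few UMIs. From these, counts were summed per library or class and divided by the total to give CPM, with exact Poisson intervals. Ratios have exact conditional binomial intervals, shares exact Clopper-Pearson intervals, and a count of 0 stands at 3 UMIs. UMIs are counted per molecule, so intervals and limits cover counting error only. Barcodes for clustering had at least 500 UMIs, 200 genes and at most 20% mitochondrial UMIs. A simulated-doublet score (0.8% per 1000 barcodes) left out 0 of 184 chimera, 1493 of 13662 KO testis and 99 of 3525 KO cauda barcodes. Clusters used 2000 variable genes without members or partners, 30 components, 15 neighbours and Leiden resolution 0.5 (scikit-learn 1.9.0, scanpy 1.11.5, leidenalg 0.10.2). A class was named from at least 3 markers raised 2-fold. All intervals used scipy 1.17.1. No column belonged to an unmapped sample. Named genes are the 10 members, their partners, and of each pathway list the 3 with most chimera UMIs, plus genes past the rule of size, which were chosen after their values were seen. The members and lists were chosen with earlier results of these data known. Alternatives of barcode depth, thinning, scaling, filter, fold and limit were tried, and those that set shared barcodes, a single KO testis barcode or doublets aside were chosen after seeing the data.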

Additional observations from a re-analysis of the deposited data

How the results depend on the processing

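No paired analysis was possible because each group had 1 library. The ratio of the chimera to the KO cauda kept its direction for all 9 members with a ratio under every alternative tried (8 or 9 for each): 186 to 3879 for Gapdhs, 270.3 to 2252 for Pgk2, 128 to 1375 for Ldhc, 31.0 to 188 for Aldoart1, 9.04 to 20.4 for Cox6b2 and 9.73 to 59.0 for Sord, where the highest for Pgk2 and the lowest for Ldhc are lower bounds because the KO cauda then had 0 UMIs. The lowest value for Gapdhs and Sord came from barcodes of at least 1000 UMIs. With at least 100 CPM required, 3 of 3 members were higher between the caudas, beside 6.11% of all genes, but Gapdhs, Pgk2 and Sord reached 100 CPM only in the chimera and so had to differ. Between the KO testis and the KO cauda 5 of 9 were higher with no filter on low levels, beside 19.1%, and 0 of 0 could be counted at 100 CPM. The KO testis ratio of Pgk2 was 0.207 over all barcodes and 1.55 with barcodes of at least 1000 UMIs (0.174 to 73.5), where the KO cauda held 1 UMI. That of Ldhc was 129.7 (23.1 to 5134) at 1000 UMIs, and at least 5.33 when the knockout libraries were thinned to the chimera's depth, where that of Cyct and of Eno4 was at least 1.33. That of Cox6b2 ran from 12.5 to 18.0 and that of Sord from 0.867 to 1.07. The number of pairs with more than 50% sperm form was 1 over all chimera barcodes, 0 at 500 or more UMIs, 2 below 500, 2 when unshared and 5 when unshared with 500 or more. The ratio of the members' level in chimera barcodes with both germ marker lists to those with neither was 0.582, but 1.66 with at least 50 UMIs and 2.68 with unshared barcodes. In the spermatocyte-like class of the KO testis the summed level was 656 CPM, and became 455 CPM at 1000 UMIs, 481 CPM at 10% mitochondrial UMIs, 369 CPM with no doublets removed and 173 CPM without the barcode of most Ldhc UMIs. At 1000 UMIs no spermatid-like class was found. With a pseudocount of 10 CPM, 5 of the 10 most alike genes were shared with the list at 1 CPM. Values for single genes or pairs, those above included, were compared under each alternative set at the start. Of these, 135 stayed the same, 51 moved and 1 turned direction. The same meant within the counting interval, or within a fixed fold where the main ratio was a bound. Where no cause is given, the cause was not tested. Depth limits the chimera most, since 0 UMIs there allows 0.556 CPM.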
